A study of Mus musculus with 4 samples.

Results

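The genes described here encode granule proteases, the proteins stored with them and serpins that inhibit proteases, in mouse group 3 innate lymphoid cells (ILC3s). They are 9 of 24343 genes in the deposited count table: the granzyme genes Gzma, Gzmb and Gzmc, the carboxypeptidase gene Cpa3, the perforin gene Prf1, the serglycin gene Srgn and the serpin genes Serpinb1a, Serpinb6b and Serpinb9. They were chosen by name with their read counts in the TL1A and medium libraries already known, so their change is described and not tested. ILC3s are lymphocytes without antigen receptors that sit at mucosal surfaces. The sort took cells without lineage markers, with CD127 and with GFP, from animals of the genotype IL23R-GFP/WT, in which GFP reports the IL-23 receptor locus in every group. Of 4 libraries, 2 came from cells kept in medium and 2 from cells stimulated with TL1A, a cytokine of the TNF superfamily. The sources used here do not give the dose or time of stimulation, the tissue, or the age of the animals. Whether libraries of the same condition stand for different animals is not labelled, and the p-values therefore reflect a spread that may be technical.

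Cytotoxic lymphocytes keep granzymes, which are serine proteases, in secretory granules together with perforin, which opens a way into the target cell. Serglycin is the proteoglycan core of these granules, and its glycosaminoglycan chains hold the positively charged proteases. Serpins of clade B stay in the cytosol and trap proteases that escape from granules, which protects the cell that carries them.

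The libraries held 11495636 to 12605164 reads assigned to genes, and each of the 9 genes had a single deposited transcript row. Levels are normalised read counts (CPM), on library sizes scaled by trimmed mean of M values (TMM) factors. A gene was called at a Benjamini-Hochberg adjusted p under 0.05 in the quasi-likelihood test of edgeR. Among 9852 tested genes 42.3% were called, 20.6% as higher and 21.7% as lower with TL1A, and the median log2 fold change was -0.03. By the same call 5 of the 9 genes were higher, 3 were lower and Prf1 was not called, and nothing is read from these counts because the change itself chose the genes. The groups did not overlap for any of the 9, as for 72.2% of all tested genes. Their median log2 fold change was 1.14.

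The sorted identity was checked first. The ILC3 genes Il7r (CD127) and Il23r had 3606 ± 77.2 and 1001 ± 7.93 CPM in medium and 1200 ± 12.5 and 647.6 ± 22.2 CPM with TL1A (SD, n = 2). Kit had 1 read in all, over 2 rows, and a read that fits both rows is missing from the table. These are bulk samples, in which fewer cells of a type and less RNA per cell cannot be told apart.

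Gzma had the highest level per kilobase among the granzyme genes in medium, and it was lower with TL1A. Granzyme A is a protease that cuts after basic residues. Gzma (RefSeq NM_010370) was read 72 and 80 times in medium against 13 and 13 times after TL1A, or 5.73 and 5.99 CPM against 1.21 and 1.12 CPM. The libraries of each condition were close together and far from those of the other. The mean fell from 5.86 ± 0.183 to 1.17 ± 0.062 CPM (SD, n = 2; log2 fold change -2.32, SE 0.33).

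Gzmb and Gzmc had few reads in medium and were higher with TL1A. Granzyme B cuts after aspartate and activates caspases of the target cell. Gzmb (NM_013542) was read 11 and 3 times in medium against 117 and 134 times after TL1A, or 0.876 and 0.225 CPM against 10.9 and 11.6 CPM. The medium value rests on few reads, and in ratio the medium libraries lie farther apart than the stimulated ones. The log2 fold change was 4.34 (SE 0.46); it was 5.57 without medium replicate 1 and 3.69 without medium replicate 2.

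Granzyme C, a relative of granzyme B found in rodents, showed the larger change. Gzmc (NM_010371) was read 10 and 8 times in medium against 2480 and 2633 times after TL1A, or 0.796 and 0.599 CPM against 230.7 and 227 CPM. Both stimulated libraries stood far above both medium libraries. The ratio of the means was 328 and the log2 fold change 8.34 (SE 0.16), which ranked 14 among the increases of all tested genes.

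The balance among the granzyme transcripts therefore differed between the conditions in each library. There were 0.153 and 0.0375 Gzmb reads for each Gzma read in medium, against 9 and 10.3 with TL1A. Corrected for transcript length, Gzma made up 81.3% and 89.2% of the summed level of the 3 granzymes in medium, and Gzmc made up 96.6% and 96.5% with TL1A. That sum was 8.03 and 7.65 CPM per kilobase in medium and 267 and 263.2 CPM per kilobase with TL1A. The read ratios and shares are taken within a library and do not depend on the scaling between libraries, whereas the summed levels do.

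The sequences before the granzyme genes are shown because the 3 genes differ in direction and because Gzmc has close relatives that were not counted at all. Each run covers 250 bases before and 50 after the annotated start, 5′ to 3′ in the direction of the gene, from RefSeq on GRCm38.p6, all on the minus strand. Capitals mark TGTGGT, the core of RUNX sites, on either strand (ACCACA on the other strand), and TGANTCA, the AP-1 site. Gzmd, which had 0 reads in every library, is given for comparison with Gzmc. The windows are chr13:113100932-113101231 for Gzma, chr14:56262285-56262584 for Gzmb, chr14:56234608-56234907 for Gzmc and chr14:56132544-56132843 for Gzmd.
Gzma: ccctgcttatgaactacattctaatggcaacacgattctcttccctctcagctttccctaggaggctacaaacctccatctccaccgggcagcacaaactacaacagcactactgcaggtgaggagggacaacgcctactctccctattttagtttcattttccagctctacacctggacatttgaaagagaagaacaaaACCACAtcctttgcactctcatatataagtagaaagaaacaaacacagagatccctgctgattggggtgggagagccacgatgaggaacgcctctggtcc
Gzmb: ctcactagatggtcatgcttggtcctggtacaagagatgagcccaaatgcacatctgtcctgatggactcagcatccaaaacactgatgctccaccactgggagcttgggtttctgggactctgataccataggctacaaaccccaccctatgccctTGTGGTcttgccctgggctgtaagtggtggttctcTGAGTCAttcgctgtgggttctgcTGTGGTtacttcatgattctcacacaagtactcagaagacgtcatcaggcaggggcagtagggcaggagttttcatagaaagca
Gzmc: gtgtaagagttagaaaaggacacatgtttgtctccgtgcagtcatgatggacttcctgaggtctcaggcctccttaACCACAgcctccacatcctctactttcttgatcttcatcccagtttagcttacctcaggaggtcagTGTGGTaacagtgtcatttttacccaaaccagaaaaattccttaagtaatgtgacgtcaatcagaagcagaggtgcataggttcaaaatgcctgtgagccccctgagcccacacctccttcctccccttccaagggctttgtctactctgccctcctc
Gzmd: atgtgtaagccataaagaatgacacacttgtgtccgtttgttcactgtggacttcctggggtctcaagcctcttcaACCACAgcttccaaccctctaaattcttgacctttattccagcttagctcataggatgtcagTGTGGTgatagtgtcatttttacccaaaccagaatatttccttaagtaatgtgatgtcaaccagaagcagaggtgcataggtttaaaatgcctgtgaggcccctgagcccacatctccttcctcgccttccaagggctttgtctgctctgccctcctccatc
Gzmb held TGTGGT at 93 and 34 bases before its start, with the AP-1 match between them at 58 bases. Gzmc held ACCACA at 174 and TGTGGT at 108 bases before its start, and Gzmd held them at 174 and 112. Gzma held a single ACCACA at 50 bases before its start.

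Promoters on GRCm38.p6 were matched for 8 of the 9 genes, with 9 windows in all because Srgn has a pair. The entry for Serpinb1a was not matched. TGTGGT was present on either strand in 7 of the 8 genes (Cpa3, Gzma, Gzmb, Gzmc, Prf1, Serpinb9 and the second window of Srgn). It was present in 16.8% of 32851 promoter windows of the same length, which is a share of windows and not of genes. In Serpinb9 the match began at base 11 after the start. TGANTCA was found in Gzmb alone (7.81% of all windows) and the STAT motif TTCNNNGAA in Gzmb alone (8.3%). The NF-κB motif was found in none of the 8 genes (8.46% of all windows). The T-box core AGGTGT was in Gzma, Gzmc and Prf1 (13.7%), and the ETS motif AGGAAG in Gzmc, Prf1, Serpinb6b and Serpinb9 (35.4%). TATAAA was in Cpa3 and Srgn (13.6%) and the GATA motif AGATAA in Cpa3 (11.2%). All 8 motifs were searched on both strands, and no matches of different motifs overlapped in the granzyme windows shown. A match describes letters in these windows and is not evidence of binding.

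Gzmc and Gzmb lie next to each other at the end of a cluster of mast cell protease and granzyme genes on chromosome 14. In RefSeq gene order the cluster runs Cma1, Cma2, Mcpt1, Mcpt2, Mcpt9, Mcpt4, Mcpt8, Ctsg, Gzme, Gzmd, Gzmg, Gzmn, Gzmf, Gzmc, Gzmb. Of these 15 genes only Gzmc and Gzmb had any read in these 4 libraries. The promoter of Gzmc was 86.1% to 86.9% identical to those of Gzmd, Gzme, Gzmf and Gzmg over 275 to 294 aligned bases. Near-identical copies can lose reads to the class of reads that were not uniquely aligned. In GENCODE transcripts, 19.4% to 21.9% of the 50-base windows of Gzmd, Gzme, Gzmf and Gzmg, 6.06% of those of Gzmn and 4.14% of those of Gzmc also occurred in another gene. For Gzma, Gzmb, Prf1, Srgn and Cpa3 the share was 0%. The length of the sequenced reads is not given in the sources used here, so these shares are a guide only. Outside the cluster, Gzmk had 0 reads in every library and Gzmm had 1 read in each medium library and 0 with TL1A.

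**Figure D1:**
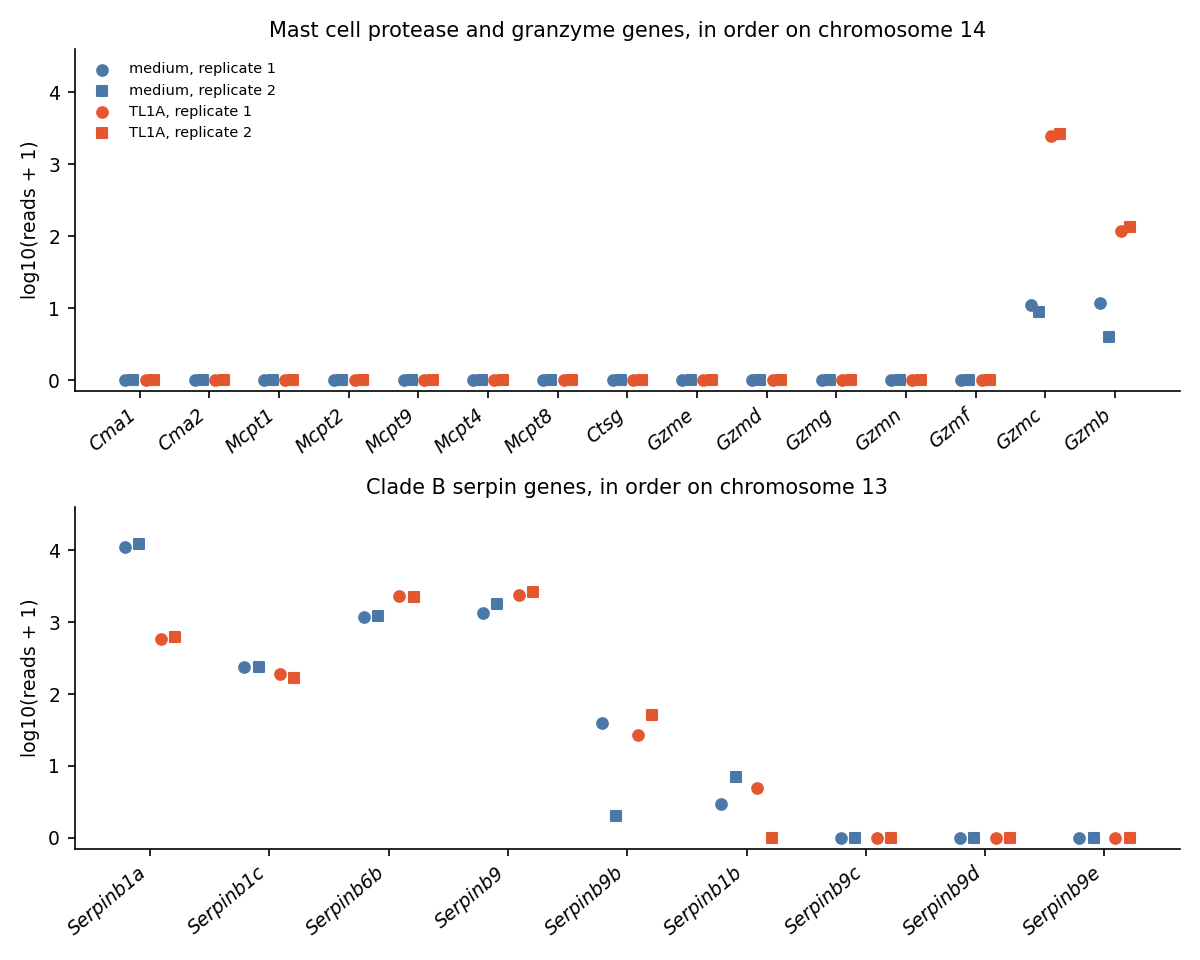
Reads per gene, as log10(reads + 1), in each of the 4 libraries. The upper panel shows the gene cluster of chromosome 14 and the lower panel the stretch of chromosome 13 from Serpinb1a to Serpinb9e. Genes are placed in RefSeq order and not to scale. On chromosome 14 only Gzmc and Gzmb stand above 0, and on chromosome 13 Serpinb1a is lower with TL1A while its near neighbours Serpinb6b and Serpinb9 are higher.

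Cpa3 was detected in medium and almost absent with TL1A. It encodes carboxypeptidase A3, a metalloprotease best known from mast cell granules, which trims the ends of peptides. Cpa3 (NM_007753) was read 212 and 314 times in medium against 2 and 0 times after TL1A, or 16.9 and 23.5 CPM against 0.186 and 0 CPM. A count of 0 allows up to 0.259 CPM in that library (3 reads on the same scaled library size). The ratio of medium to TL1A over the pooled reads was 227, with a 95% exact (Clopper-Pearson) counting interval of 62.5 to 1880, which covers counting error only. The fitted log2 fold change of -7.66 (SE 0.54) rests on the 2 reads. Leaving out TL1A replicate 1 or TL1A replicate 2 gave -10.98 and -6.68. The value of -10.98 sets medium against a library with 0 reads, so its size is not set by counted reads.

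Other mast cell genes were at or near 0 in medium, where Cpa3 was read. All 15 genes on a list of mast cell and neutrophil granule enzymes had 0 reads in every library. They include the protease genes Mcpt4, Cma1, Tpsb2 and Elane and the peroxidase gene Mpo. Of 12 mast cell and basophil markers, 8 had 0 reads throughout, including the Fc receptor genes Fcer1a and Ms4a2 and the lineage factor gene Gata2 (Ms4a2 has several rows, and a read that fits more than 1 row is missing). The summed level of the list was 2.23 and 2.7 CPM in medium and 19.3 and 11.9 CPM with TL1A. Most of the latter was Cyp11a1, which encodes the first enzyme of steroid synthesis and rose (log2 fold change 4.24, SE 0.43, edgeR adjusted p = 0.000203). The histamine synthesis gene Hdc, the only other tested marker, had 1.53 ± 0.807 and 1.93 ± 0.293 CPM and did not pass (adjusted p = 0.633).

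Prf1 read higher with TL1A, but its libraries were spread widely. Prf1 (NM_011073) was read 44 and 7 times in medium against 120 and 61 times after TL1A, or 3.5 and 0.524 CPM against 11.2 and 5.26 CPM. The groups did not overlap, yet the SD of the medium libraries (2.11 CPM) was as large as their mean (2.01 CPM). The log2 fold change was 2.03 (SE 0.70), which was not called. It was 2.26 with the replicate number as a block, where Prf1 was called, as it was with DESeq2 and limma-voom. It was 3.93 without medium replicate 1, 1.25 without medium replicate 2 and 1.40 without TL1A replicate 1.

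Srgn, the granule proteoglycan, had the highest level per kilobase of transcript among the 9 genes in both conditions. Srgn (NM_011157) was read 7489 and 8499 times in medium against 27522 and 29961 times after TL1A, or 596.3 and 636.5 CPM against 2560 and 2583 CPM. The mean rose from 616.4 ± 28.4 to 2572 ± 16.5 CPM with 2 libraries each (SD), a 4.17-fold difference (log2 fold change 2.06, SE 0.06). The stimulated libraries were nearly equal and well above both medium libraries.

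The serpins moved in opposite directions. Serpinb1a, a strong inhibitor of neutrophil elastase, cathepsin G and related proteases, was lower with TL1A. Serpinb1a (NM_025429) was read 11055 and 12332 times in medium against 588 and 617 times after TL1A, or 880.3 and 923.6 CPM against 54.7 and 53.2 CPM. This was a 16.7-fold difference of the means (log2 fold change -4.06, SE 0.08). Only 1.89% of tested genes had a change of that size or larger in either direction. Elane, Ctsg and Prtn3, which encode the proteases it is known to trap, had 0 reads in every library.

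Serpinb6b and Serpinb9 were higher with TL1A. Serpinb9 is the mouse inhibitor of granzyme B, and Serpinb6b is known to inhibit granzyme A. Serpinb6b (NM_011454) was read 1176 and 1203 times in medium against 2291 and 2227 times after TL1A, or 93.6 and 90.1 CPM against 213.1 and 192 CPM (log2 fold change 1.14, SE 0.09). Serpinb9 (NM_009256) was read 1339 and 1785 times in medium against 2355 and 2620 times after TL1A, or 106.6 and 133.7 CPM against 219 and 225.9 CPM (log2 fold change 0.89, SE 0.12). Serpinb9 was the smallest change of the 9, and every stimulated library was still above both medium libraries for both genes. Serpinb1a, Serpinb6b and Serpinb9 share 3.42%, 3.12% and 0.388% of their 50-base transcript windows with other genes, mostly other clade B serpins, so their counts can miss or share a small part of reads.

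Corrected for transcript length, Serpinb1a made up 86.1% and 85.7% of the summed level of the 3 serpins in medium, against 15% and 15.3% with TL1A. Serpinb6b went from 8.01% and 7.31% to 51.1% and 48.2%, and Serpinb9 from 5.89% and 7% to 33.9% and 36.6%. The summed level of the 3 was 533.1 and 562.1 CPM per kilobase in medium and 190.2 and 181.8 CPM per kilobase with TL1A. The total was thus lower with TL1A although 2 of the 3 genes were higher.

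**Figure D2:**
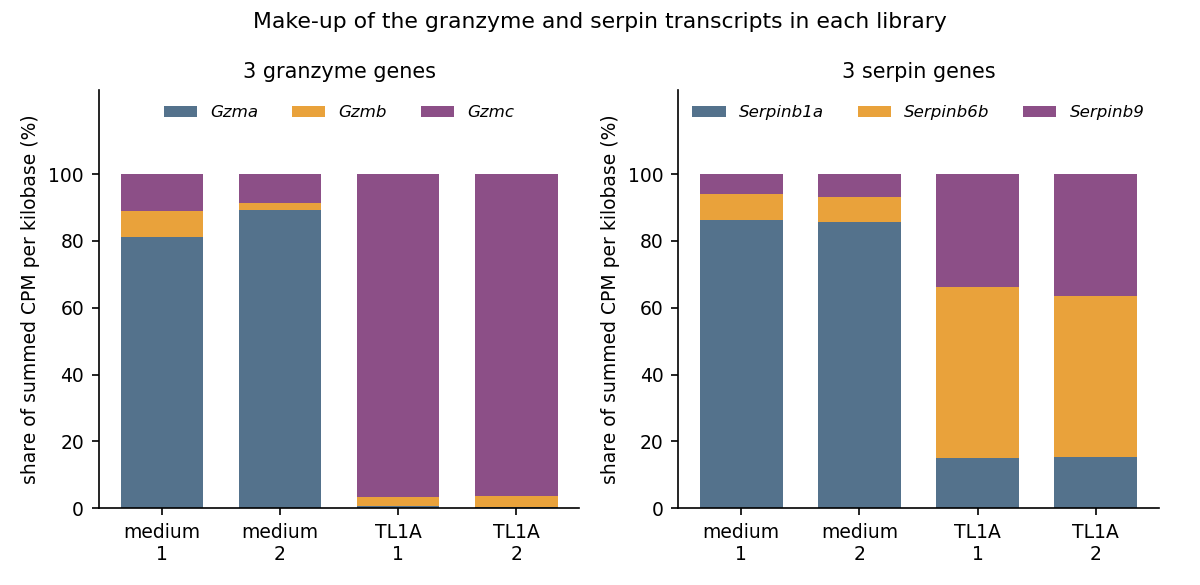
Share of the summed CPM per kilobase of transcript, in percent, taken by each of 3 granzyme genes (left) and 3 serpin genes (right) in each library. Gzma holds 81.3% and 89.2% of the granzyme sum in medium and Gzmc 96.6% and 96.5% with TL1A, while the Serpinb1a share of the serpin sum is 86.1% and 85.7% in medium but 15% and 15.3% with TL1A.

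The order of the 9 genes by level per kilobase of transcript differed between conditions. In medium it ran Srgn (657.2 ± 30.3 CPM per kilobase), Serpinb1a (470.3 ± 16), Serpinb6b (41.9 ± 1.14), Serpinb9 (35.4 ± 5.64), Cpa3 (13.9 ± 3.24), Gzma (6.68 ± 0.208), Prf1 (0.814 ± 0.851), Gzmc (0.781 ± 0.156) and Gzmb (0.383 ± 0.321). The libraries of Prf1 and Gzmc overlapped, and those of every other pair of neighbours in this order did not. With TL1A it ran Srgn (2742 ± 17.7), Gzmc (255.9 ± 2.9), Serpinb6b (92.4 ± 6.8), Serpinb9 (65.5 ± 1.43), Serpinb1a (28.1 ± 0.545), Gzmb (7.81 ± 0.33), Prf1 (3.32 ± 1.69), Gzma (1.33 ± 0.071) and Cpa3 (0.064 ± 0.091), and no neighbours overlapped. Gzmc moved from rank 8 to rank 2 and Serpinb1a from rank 2 to rank 5.

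**Figure D3:**
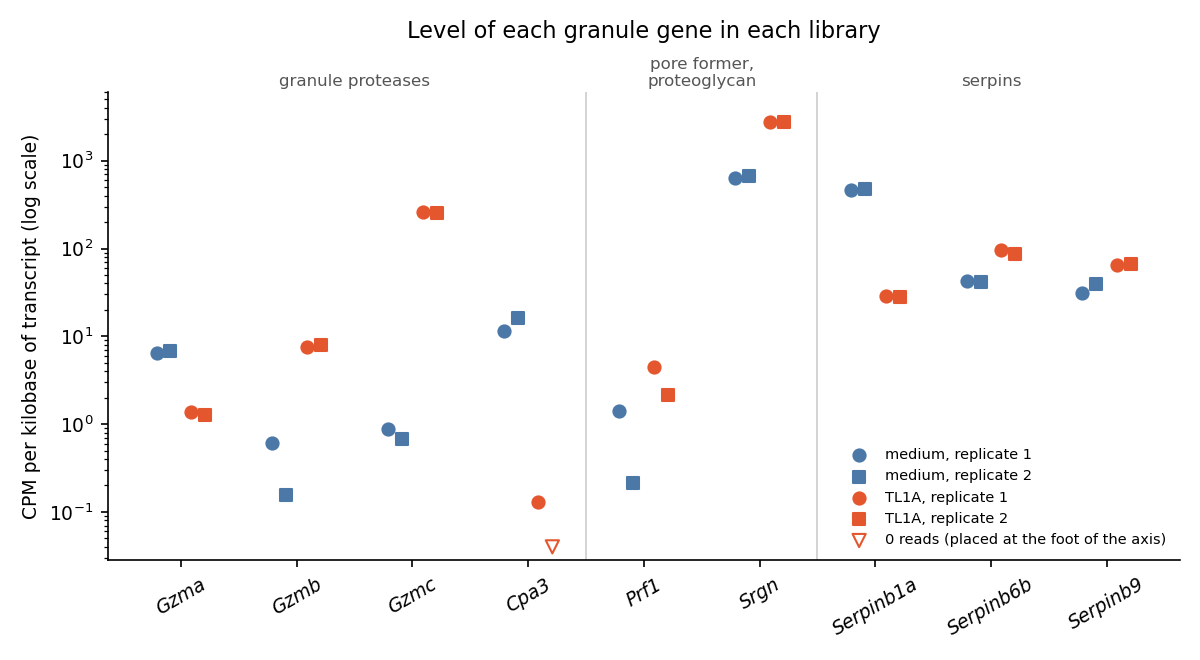
Level of each of the 9 genes in each library, in CPM per kilobase of transcript on a log axis, with medium in blue and TL1A in orange, circles for replicate 1 and squares for replicate 2. For every gene both TL1A points lie on the same side of both medium points, and the points of a condition lie far apart for Cpa3 with TL1A, where 1 library is at 0, for Prf1 and, in medium, for Gzmb.

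**Figure D4:**
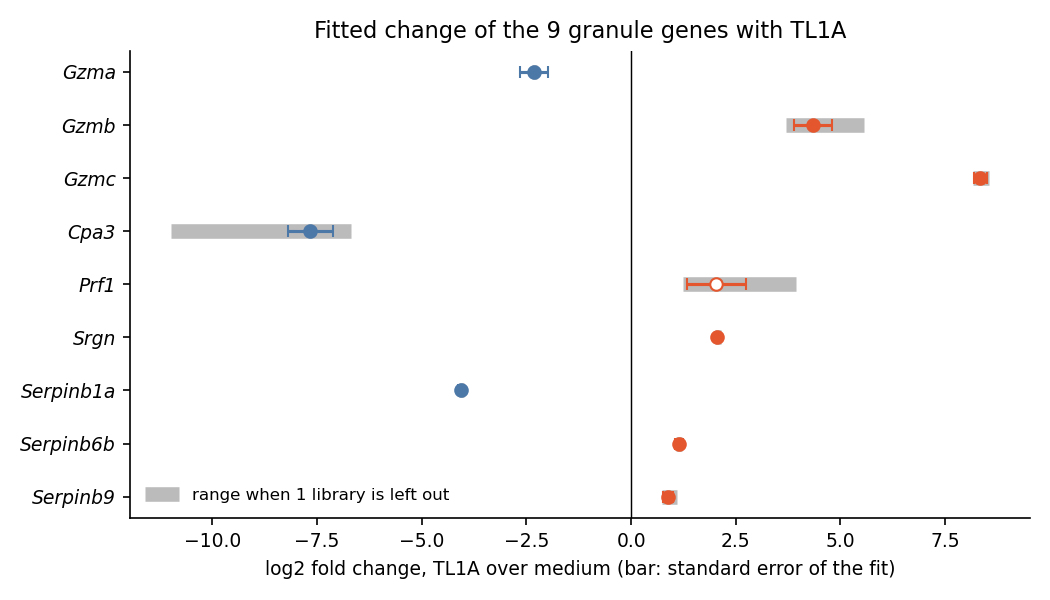
Fitted log2 fold change of TL1A over medium for the 9 genes (points, with bars for the standard error), and the range of that value when any 1 library is left out (grey). The open point, Prf1, was not called, and the widest grey ranges belong to Cpa3, Prf1 and Gzmb.

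Genes whose pattern over the 4 libraries was most like that of Gzma and of Gzmb were found by the root mean square distance between log2(CPM + 1) values centred on each gene's mean. Nearest to Gzma were Cd53 (distance 0.03), Lypd6b (0.034) and Il7r (0.041). Nearest to Gzmb were Slc43a3 (0.033), Cdk6 (0.134) and Nfkbie (0.139). With 2 conditions such a distance mostly compares the size of a change.

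Other genes of granule biology moved in both directions. Over lists of related granule and serpin genes, 10 of 43 tested genes were higher and 15 lower (edgeR, adjusted p under 0.05), against 20.6% and 21.7% of all genes. In the list of granule cargo and protease maturation, 5 of 13 tested genes rose, 7 fell and 1 did not pass, with a median log2 fold change of -0.30. The share called in this list was 92.3%, against 42.3% of all tested genes. Both mannose 6-phosphate receptor genes, which sort proteases to lysosome-like granules, rose: M6pr from 525.6 ± 19.1 to 1580 ± 44.8 CPM (SD, n = 2; log2 fold change 1.59, SE 0.06, edgeR adjusted p = 2.15e-06) and Igf2r by 1.24 (SE 0.08, adjusted p = 2.52e-05). The protease gene Ctsd rose by 0.65 (SE 0.07, adjusted p = 0.000282) and Ctsl fell by 1.09 (SE 0.13, adjusted p = 0.00052). Ctsc, which encodes the protease that activates granzymes, and Nkg7, a protein of cytotoxic granules, were picked out after their values were seen. Ctsc rose by 0.53 (SE 0.07) and Nkg7 fell by 1.77 (SE 0.39, edgeR adjusted p = 0.000692 and 0.00938).

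Of 9 tested genes of granule exocytosis, 1 rose, 3 fell and 5 did not pass, with a median log2 fold change of -0.18. The share called, 44.4%, was close to the 42.3% of all tested genes. Rab27a, which docks granules at the membrane, was read 3 and 5 times in medium against 12 and 16 times after TL1A over 3 rows (log2 fold change 1.98, SE 0.61, edgeR adjusted p = 0.035), and this call was lost when any 1 library was left out. Stxbp2 (Munc18-2) fell by 0.37 (SE 0.08, adjusted p = 0.00889), Lyst by 0.38 (SE 0.12, adjusted p = 0.0325) and Vamp8 by 0.22 (SE 0.07, adjusted p = 0.0479). The call of Stxbp2 was lost without TL1A replicate 2 (adjusted p = 0.0604), and that of Lyst without TL1A replicate 1 (0.148), without TL1A replicate 2 (0.109) and without medium replicate 2 (0.169). Leaving out the same libraries ended the call of Vamp8 (0.122, 0.313 and 0.186), as did RLE library factors (0.0952). With the replicate number as a block none of Rab27a, Lyst and Vamp8 passed (edgeR adjusted p = 0.0722, 0.0717 and 0.129). Stx11 was read 1 and 0 times in medium against 6 and 8 times after TL1A and was too low to test.

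Of 14 tested genes that build the glycosaminoglycan chains of serglycin, 4 rose, 2 fell and 8 did not pass, with a median log2 fold change of 0.12. The share called, 42.9%, was also close to that of all tested genes. Chsy1, a chondroitin polymerising enzyme, rose from 49.7 ± 0.524 to 165.6 ± 6.28 CPM (SD, n = 2; log2 fold change 1.74, SE 0.09, edgeR adjusted p = 8.17e-06). The chondroitin sulphotransferase genes Chst15 and Chst11 rose by 1.83 (SE 0.09, adjusted p = 6.65e-06) and 1.25 (SE 0.08, adjusted p = 1.7e-05). Xylt2, which starts the chains, fell from 48.9 ± 1.96 to 12.2 ± 0.339 CPM (adjusted p = 3.54e-05).

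**Figure D5:**
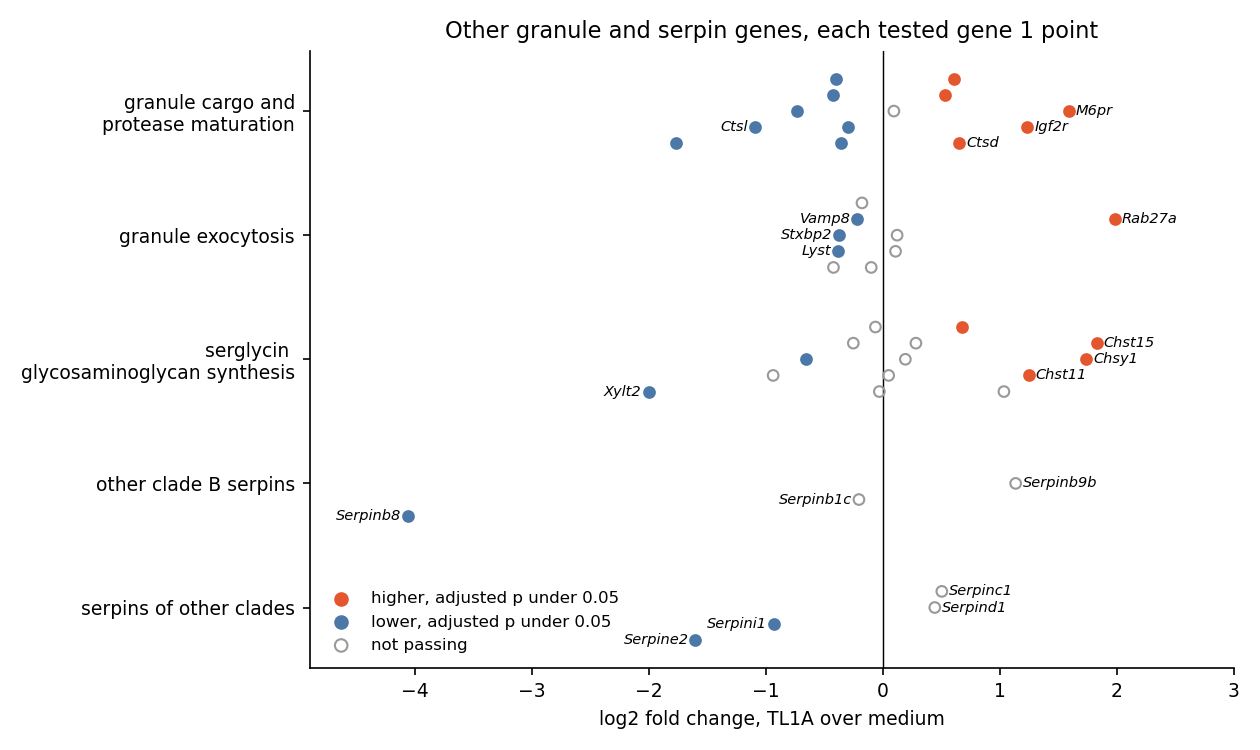
Log2 fold change of TL1A over medium for each tested gene of 5 lists of granule and serpin genes, with filled points for genes at an adjusted p under 0.05 (orange higher, blue lower) and open points for the rest. M6pr, Chst15 and Chsy1 lie on the right, and Serpinb8 lies farthest to the left.

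Among the other 21 clade B serpins, 3 had enough reads to be tested and 13 had 0 reads in every library. Of these 13, 4 have several rows, and a read that fits more than 1 row is missing. Serpinb8, an inhibitor of furin, fell from 50.9 ± 1.34 to 3.07 ± 1.05 CPM (SD, n = 2; log2 fold change -4.05, SE 0.23, edgeR adjusted p = 1.005e-05), a change of similar size to that of Serpinb1a. Serpinb1c, the close relative of Serpinb1a that follows it on chromosome 13, had 18.2 ± 0.624 and 15.8 ± 2.11 CPM (log2 fold change -0.20, SE 0.18, adjusted p = 0.39). Serpinb9b, next to Serpinb9, was read 38 and 1 times in medium against 26 and 50 times after TL1A (adjusted p = 0.378; a log2 fold change of 5.30 without medium replicate 1, adjusted p = 0.00361). In RefSeq order the stretch looked at runs Serpinb1a, Serpinb1c, Serpinb6b, Serpinb9, Serpinb9b, Serpinb1b, Serpinb9c, Serpinb9d, Serpinb9e, and the last 3 had 0 reads. Serpin genes beyond Serpinb9e, the chosen end, were not placed in this order. Up to 78.7% of the 50-base windows of a Serpinb9 paralogue (Serpinb9f) occur in other genes, and the part of reads not uniquely aligned in its near-absence from the table was not tested.

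In other serpin clades, 4 of 12 listed genes were tested, 2 fell and 2 did not pass. This is a share of 50% called, against 42.3% of all tested genes. Serpine2, which inhibits thrombin and related proteases outside cells, was read 3969 and 1883 times in medium against 619 and 1077 times after TL1A (log2 fold change -1.60, SE 0.37, edgeR adjusted p = 0.011; -0.91 without medium replicate 1). Serpini1 fell by 0.93 (SE 0.23, adjusted p = 0.0158), a call lost without medium replicate 2 (0.0793) or TL1A replicate 2 (0.069). Serpinc1 and Serpind1 had log2 fold changes of 0.50 (SE 0.33) and 0.44 (SE 0.31).

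Lists of genes used as markers of other cells were followed beside these values. ILC3s can carry some of these genes too, among them Ncr1, Cd4 and Gata3, so the lists are not particular to other cells. The summed level of 14 NK cell and ILC1 markers was 50.9 and 56.4 CPM in medium and 946.9 and 924.5 CPM with TL1A. Nearly all of the sum with TL1A came from Ncr1 and Ccl5, so it does not follow the list as a whole. Of the 5 tested markers, 2 rose, 2 fell and 1 did not pass. This is a share of 80% called, against 42.3% of all tested genes. Klrd1, too low to test, was read 9 and 12 times in medium against 0 and 0 times after TL1A. Ncr1 rose by 4.80 (SE 0.09) and Ccl5 by 4.10 (SE 0.10), Klrk1 fell by 2.56 (SE 0.61) and Nkg7 fell as above, and Tbx21 had 1.33 ± 0.712 and 3.19 ± 0.614 CPM and did not pass (edgeR adjusted p = 0.0366 without medium replicate 1). The call of Klrk1 was lost without medium replicate 1 or TL1A replicate 2 (edgeR adjusted p = 0.0516 and 0.0715), and its change was -3.74 without TL1A replicate 1. Eomes, which defines NK cells, had 0 reads in every library, as did 7 of the 14, although 6 of these 7 have several rows. T cell markers summed to 496.1 and 508.6 CPM in medium and 211.4 and 205.9 CPM with TL1A, mostly Cd4 and Lat. Cd4 was lower (log2 fold change -1.97, SE 0.12, edgeR adjusted p = 1.49e-05), while Lat, Cd3e and Cd3g did not pass. The CD3 genes had few reads and did not follow Cd4. Cd3e was read 0 and 16 times in medium against 20 and 16 times after TL1A, and Cd3g 19 and 44 against 26 and 40 times. Cd3d, too low to test, was read 2 and 2 against 8 and 9 times. Cd8a (over 2 rows) had 0 reads and Cd8b1 had 1 read in all. Of 9 neutrophil markers, 6 had 0 reads, although 2 of these 6 have several rows, and the sum stayed between 0.279 and 1.42 CPM. ILC2 markers summed to 242.6 and 262.7 CPM in medium and 313.3 and 288.7 CPM with TL1A. Of 8 tested, 1 rose, 3 fell and 4 did not pass, with a median log2 fold change of -0.65. The share called was 50%, against 42.3% of all tested genes, so little is read from this count. The one that rose was Klrg1 (from 27.6 ± 0.332 to 134.7 ± 4.94 CPM; SD, n = 2), and Il1rl1, Arg1 and Il17rb fell by 2.37, 1.54 and 1.51 on the log2 scale. Without TL1A replicate 1 the change of Il1rl1 was -3.65 and without TL1A replicate 2 it was -1.68. The part of such cells in the granule gene values was not tested.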

How the data were processed

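The cDNA came from a SMARTer kit for low RNA input, per the labels' protocols. Per the submitters' processing notes, CASAVA, STAR and HTSeq were used with build mm9; the sources used here name no versions, strand setting or annotation. Each deposited number is a raw read count for 1 RefSeq transcript, per the file headers. Of 33535 rows, 33154 matched a symbol in RefSeq for GRCm38.p6, used for names and gene order, and rows were summed per gene. The 5 summary rows (69.9% to 71.3% of a column: not uniquely aligned, ambiguous or without a feature) were left out. Because the authors counted per transcript, reads shared by several rows of a gene are missing.

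Genes passing filterByExpr (minimum count 10) were tested in R 4.3.3 with edgeR 4.0.16 (TMM, glmQLFit, glmQLFTest, two-sided, Benjamini-Hochberg over all tested genes), after a check on simulated data. An exact permutation test of 2 against 2 cannot go below 0.333. The standard error is the log2 fold change divided by the square root of F. Lengths are those of the GENCODE M21 transcript paired with each RefSeq row. Replicate pairs differed beyond sampling noise (chi-square per degree of freedom 12.3 and 7.98). Alternatives were DESeq2 1.42.0, limma-voom (limma 3.58.1), RLE factors, no filter, a replicate block, the row with the most reads, each library left out and, added after the data were seen, no scaling factors and a crossed block. Since the 9 genes have 1 row each, no test of separate rows applied to them. Named genes were the 9, up to 4 genes of each list with the smallest p (all where 5 or fewer were tested) and 3 nearest patterns to Gzma and Gzmb. Members and lists were chosen with earlier results of these data known.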

Additional observations from a re-analysis of the deposited data

How the results depend on the processing

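The counts over all genes, over the 9 genes and over the related lists stayed within 1.5 times their values under every alternative but 1. That exception was added after the data were seen: with library totals and no scaling factors, 1310 genes were higher and 3475 lower in place of 2027 and 2141, as the median log2 fold change of all tested genes moved from -0.03 to -0.29; each of the 9 genes kept its direction. When 1 library was left out, the counts ranged from 1596 to 1956 higher and 1597 to 1822 lower over all genes, from 5 to 6 higher among the 9 genes with 3 lower each time, and from 8 to 11 higher and 10 to 14 lower in the lists. A single remaining library is then assumed to vary like the other group. With the replicate number as a block, 1736 genes were higher and 1806 lower, 6 and 3 of the 9 genes, and 8 and 12 in the lists. Deviations of same-numbered libraries correlated at -0.228 across genes, and with the numbers crossed 2295 genes were higher and 2439 lower. What a number stands for is not said, so no pairing was used.

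Under all 12 alternatives each of the 9 genes kept its direction. Their calls changed for Prf1 alone, which was called under 9 of the 12; these values chose the genes, so nothing is read from that. Of the 49 tested genes followed under the alternatives (Cd3e and Cd3g were not among them), Hdc alone changed direction. Its log2 fold change ranged from -0.128 (without medium replicate 1) to 1.032 (without medium replicate 2) when 1 library was left out. Hdc was not called. The calls lost under 1 or more alternatives were those of 6 genes: Stxbp2, Lyst, Vamp8, Rab27a, Serpini1 and Klrk1. With DESeq2 the adjusted p was 0.0742 for Lyst, 0.115 for Vamp8 and 0.207 for Rab27a. Depth limits Gzmb, Gzmc and Prf1 in medium and Cpa3 with TL1A.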
